A study of Homo sapiens with 12 samples.

Results

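The genes examined were the ABC transporters, which were taken as every row with an Ensembl identifier whose symbol is ABC followed by 1 letter from A to G and then digits only. This gave 47 rows with 46 symbols, as ABCF2 is listed under 2 identifiers, out of 27249 Ensembl rows among 98711 rows in all. TAP1, TAP2 and pseudogenes with a P before their last digits do not meet the rule, whereas ABCC13, which GENCODE release 29 annotates as a transcribed pseudogene, does. RNA came from Huh7 and HepG2, a pair of lines grown from human liver cancers, with 3 samples in each of 4 groups. Resistant cells had been selected with sorafenib, an oral multikinase inhibitor used in hepatocellular carcinoma, from a first dose of 10 μmol that was raised stepwise over 8 months. Parental cells of both lines received no treatment and carry the genotype label WT, and no transgene or other agent is named for any group. Each line provides 1 resistant population and 1 parental one, and no label states that the 3 samples of a group came from separate cultures, so that p-values measure the spread between these samples, which may be technical.

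ABC transporters use ATP to move substrates across membranes. In hepatocytes, those of the canalicular membrane secrete bile salts, phospholipids, sterols, conjugated bilirubin and drugs into bile, while others on the basolateral membrane return conjugates to the blood. Several, among them ABCB1 (P-glycoprotein), ABCC1 (MRP1), ABCC2 (MRP2) and ABCG2 (BCRP), are known for exporting anticancer drugs from tumour cells. Members of subfamily A and part of subfamily G handle cholesterol and phospholipids, subfamily D imports fatty acyl compounds into peroxisomes, part of subfamily B serves mitochondria, and subfamilies E and F have no membrane domain and act on ribosomes.

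Promoter sequences are shown for 4 of the 7 members whose change with resistance differed between Huh7 and HepG2. The other members have no entry in the set of RefSeq promoters used here. Each window runs from 250 bases before to 50 bases after a RefSeq transcription start on GRCh38.p14, in the direction of transcription. For ABCG2, with 5 listed starts, the first one inside the span given in the deposited files was used, and the data do not show which start was active. The ABCD3 start, at position 94418389, lies before the span of that gene in the deposited files, which begins at 94418455. The last 30 bases of the ABCD3 and ABCF2 windows were not found in a GENCODE release 29 transcript, whereas those of ABCG2 and ABCA1 were. Capitals mark matches, on either strand and allowing overlap, to 6 short motifs. The GC box, which Sp1-type factors bind, was searched as GGGCGG. For the box bound by the trimeric factor NF-Y the letters were CCAAT. The E-box of basic helix-loop-helix factors was taken as CACGTG. The antioxidant response element of NRF2 was taken as TGACNNNGC. An AP-1 site had to read TGANTCA. The TATA box was taken as TATAAA.
ABCG2, chr4:88158810-88159109, minus strand: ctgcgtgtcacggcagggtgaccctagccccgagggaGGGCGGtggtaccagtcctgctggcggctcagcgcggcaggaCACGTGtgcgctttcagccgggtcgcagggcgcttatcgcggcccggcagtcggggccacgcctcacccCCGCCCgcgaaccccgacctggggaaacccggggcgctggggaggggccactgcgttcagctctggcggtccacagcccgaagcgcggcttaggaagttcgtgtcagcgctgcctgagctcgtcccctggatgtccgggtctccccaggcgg
ABCA1, chr9:104928106-104928405, minus strand: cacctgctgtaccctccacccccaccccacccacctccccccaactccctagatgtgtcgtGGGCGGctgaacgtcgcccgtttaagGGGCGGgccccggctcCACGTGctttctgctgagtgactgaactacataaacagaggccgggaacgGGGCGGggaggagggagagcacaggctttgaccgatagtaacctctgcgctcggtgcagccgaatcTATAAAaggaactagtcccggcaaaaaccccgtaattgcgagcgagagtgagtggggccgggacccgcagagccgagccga
ABCD3, chr1:94418139-94418438, plus strand: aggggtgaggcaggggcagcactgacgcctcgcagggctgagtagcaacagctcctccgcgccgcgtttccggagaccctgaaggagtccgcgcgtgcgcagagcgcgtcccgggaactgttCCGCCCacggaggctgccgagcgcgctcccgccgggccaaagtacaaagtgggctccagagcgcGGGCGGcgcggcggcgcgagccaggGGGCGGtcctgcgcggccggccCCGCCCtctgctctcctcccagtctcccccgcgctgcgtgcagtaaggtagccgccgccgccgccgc
ABCF2, chr7:151227156-151227455, minus strand: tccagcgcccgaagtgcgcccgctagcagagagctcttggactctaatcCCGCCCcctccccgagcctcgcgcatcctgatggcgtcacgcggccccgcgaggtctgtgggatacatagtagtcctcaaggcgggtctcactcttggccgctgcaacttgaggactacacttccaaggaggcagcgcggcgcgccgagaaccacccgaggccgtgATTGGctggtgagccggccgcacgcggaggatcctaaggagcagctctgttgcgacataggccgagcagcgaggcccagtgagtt

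Matches were counted in 1 window for each of the 35 member symbols with an entry and in all 35116 windows of the promoter set. A GC box was present in 51.4% of the member windows and in 45.0% of all windows, and a CCAAT box in 22.9% and 34.6%. An E-box was found in 17.1% of the member windows against 7.3% of all, including 1 in ABCG2 and 1 in ABCA1. The antioxidant response element stood in 20.0% against 13.3%, the AP-1 site in 11.4% against 7.7% and the TATA box in 17.1% against 11.5%. Among the windows shown, ABCD3 held 4 GC boxes, ABCA1 held 3 as well as a TATA box, ABCG2 held 2, and ABCF2 held 1 together with a CCAAT box. ABCG2 and ABCA1, which moved in opposite directions in Huh7, thus shared the E-box and the GC box. The median GC content was 62.0% in the member windows and 58.7% in all windows.

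The deposited values have no stated unit and follow the pattern of reads scaled by gene length and depth, called FPKM here. The step between values of single-exon genes gave between 12290139 and 19285965 reads per sample, the lowest 3 of them in parental HepG2 cells, and replicate samples correlated at r = 0.981 to 0.991 across genes (log2(FPKM + 1)). The 8 hepatocyte markers were at 1 FPKM or more in all 12 samples, with ALB between 571 and 2137 FPKM, whereas KRT7, DCN, CDH5 and CD68, 1 of each list for other cell types, stayed under 0.2 FPKM. In the fibroblast list PDGFRB and in the endothelial list PECAM1 were at 1 FPKM or more in all 12 samples, while PTPRC of the 3 immune markers reached 1.51 FPKM at most. The 4 fibroblast markers summed to 3.27 to 4.48 FPKM in resistant and 2.5 to 3.14 in parental Huh7 cells, and to 1.81 to 2.26 and 3.07 to 4.54 in HepG2. The 3 endothelial markers summed to 2.11 to 2.20 against 1.35 to 1.52 FPKM in Huh7 and 1.17 to 1.60 against 2.58 to 3.66 FPKM in HepG2, and the 3 immune markers to 0.975 to 1.01 against 1.06 to 1.76 and 1.04 to 1.31 against 1.36 to 1.62 FPKM. Bile duct markers differed with resistance as well, and not all in the same direction. The 4 listed summed to 142 to 154 FPKM in resistant and 83.3 to 106 in parental Huh7 cells, but to 132 to 151 in resistant and 169 to 210 in parental HepG2 cells. KRT19 was at most 8.76 FPKM in parental and at least 55.3 FPKM in resistant Huh7 cells. In HepG2 it was at 10.8 to 16.4 FPKM in resistant and 5.01 to 8.95 in parental cells. EPCAM was at 23.5 to 27.2 against 5.84 to 6.37 FPKM in Huh7 and overlapped in HepG2. SOX9 was lower in resistant cells of both lines, at 48.8 to 59.0 against 70.7 to 91.2 FPKM in Huh7. In HepG2 SOX9 was at 74.3 to 97.9 against 115 to 158 FPKM. KRT7 was near 0 throughout, and the part of these markers in the results below was not tested. In bulk RNA, fewer cells of a type and less RNA per cell cannot be told apart.

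Of the 47 rows, 27 reached 1 FPKM in at least 1 sample and 22 in all 12, while 20 stayed under 1 FPKM and 7 under 0.1 FPKM in every sample. All members together summed to 270 to 283 FPKM in resistant and 289 to 311 in parental Huh7 cells, and to 486 to 524 in resistant and 517 to 596 in parental HepG2 cells. The Huh7 sums overlapped with upper-quartile scaling (279 to 284 against 279 to 307) and with median-ratio scaling (273 to 282 against 273 to 321). The HepG2 sums, which overlap as deposited, did not overlap with either scaling. ABCC2, the canalicular pump of conjugated bilirubin, held the highest level of the family in 3 of the 4 groups. Its mean was 255 ± 34.5 FPKM (SD, n = 3) in parental HepG2 cells, far above ABCC1 at 48.0 ± 5.08, which was second, ABCE1 at 34.2 ± 4.73 and ABCC3 at 26.0 ± 5.0, of which ABCE1 and ABCC3 overlapped in their samples. In parental Huh7 cells the order began with ABCA1 at 49.8 ± 3.39 FPKM and ABCE1 at 42.3 ± 6.31, which overlapped in their samples, followed by ABCC2 at 35.4 ± 1.20 and ABCD3 at 31.8 ± 5.55, which overlapped as well. In resistant Huh7 cells ABCC2 led at 54.2 ± 4.75 FPKM, and ABCA1 stood behind ABCE1 and ABCF1 at 21.5 ± 2.39. Resistant HepG2 cells had ABCC2 at 208 ± 14.1 FPKM, with ABCC1, ABCD3 and ABCE1 next at 34.3, 32.1 and 28.6 FPKM within overlapping ranges. ABCB11, the bile salt export pump of normal hepatocytes, was at most 0.397 FPKM in Huh7 and 0.0573 FPKM in HepG2.

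**Figure D1:**
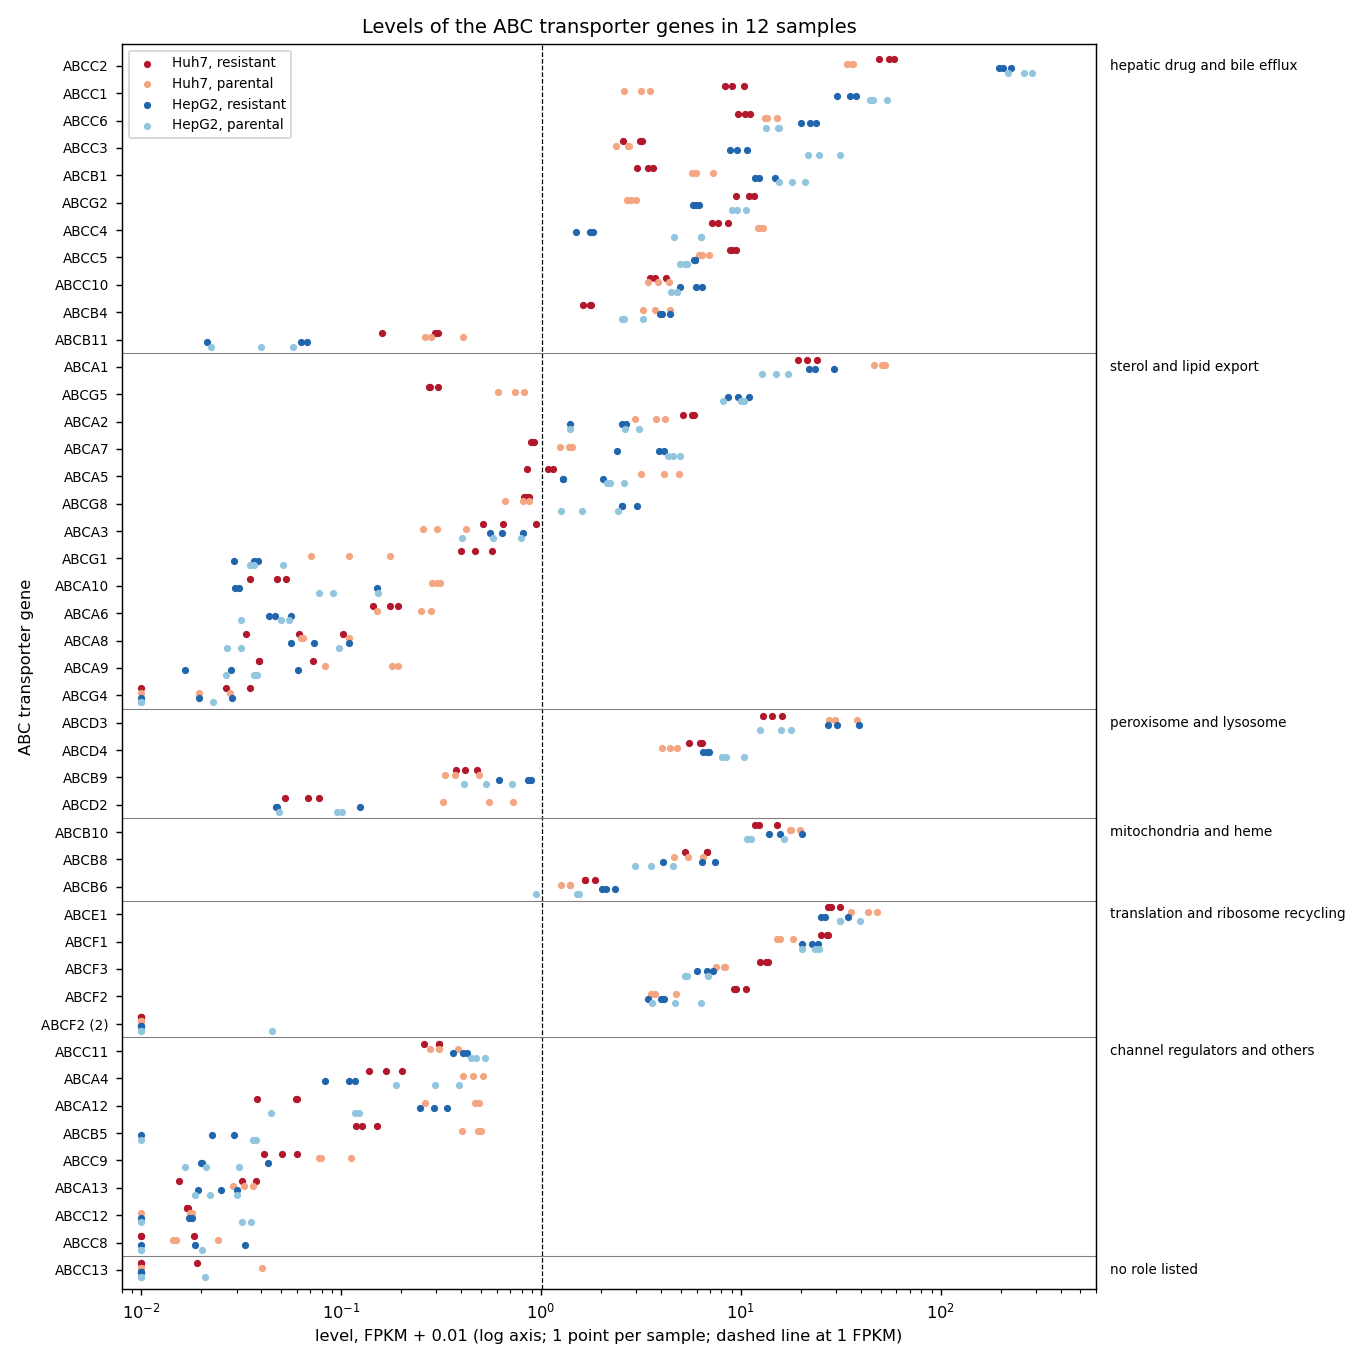
Level of 45 of the 47 ABC transporter rows in each of the 12 samples, in FPKM plus 0.01 on a log axis, ordered by role and mean level, with 1 point per sample coloured by group. ABCC2 lies furthest to the right, between 196.6 and 285.9 FPKM in HepG2, and 20 rows stay left of the dashed line at 1 FPKM.

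To find which transporters differed between resistant and parental cells, every gene that reached 1 FPKM in 3 or more samples was compared within its line by limma on log2(FPKM + 1). P-values were two-sided and adjusted by Benjamini-Hochberg over the genes tested. Calling a gene took a log2 fold change above 1 or below -1 together with an adjusted p-value under 0.05. In Huh7, 3 of the 25 members tested were called higher and 3 lower, where 8.59% and 14.0% of all 12554 genes tested were, or 22.6% in both directions. The median log2 fold change of the members was -0.02, that of all genes -0.04. An adjusted p-value under 0.05 without regard to size was reached by 20 of the 25 members, 9 higher and 11 lower, and by 70.1% of all genes. In HepG2, 1 of 27 members tested was called higher and 2 lower, against 3.29% and 2.98% of 11762 genes (6.27% in both directions), with a median of 0.00 for the members and 0.12 for all genes. Here 6 members and 20.0% of all genes had an adjusted p-value under 0.05. Without overlap of the groups, 10 members were above and 11 below their parental samples in Huh7, where 74.5% of all genes did not overlap, and 8 were above and 8 below in HepG2, where 40.4% did not. The share of members called was thus near that of all genes in Huh7, and in HepG2 it rests on 3 genes. ABCA7 was tested in Huh7 through its parental samples, as all resistant samples were under 1 FPKM.

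**Figure D2:**
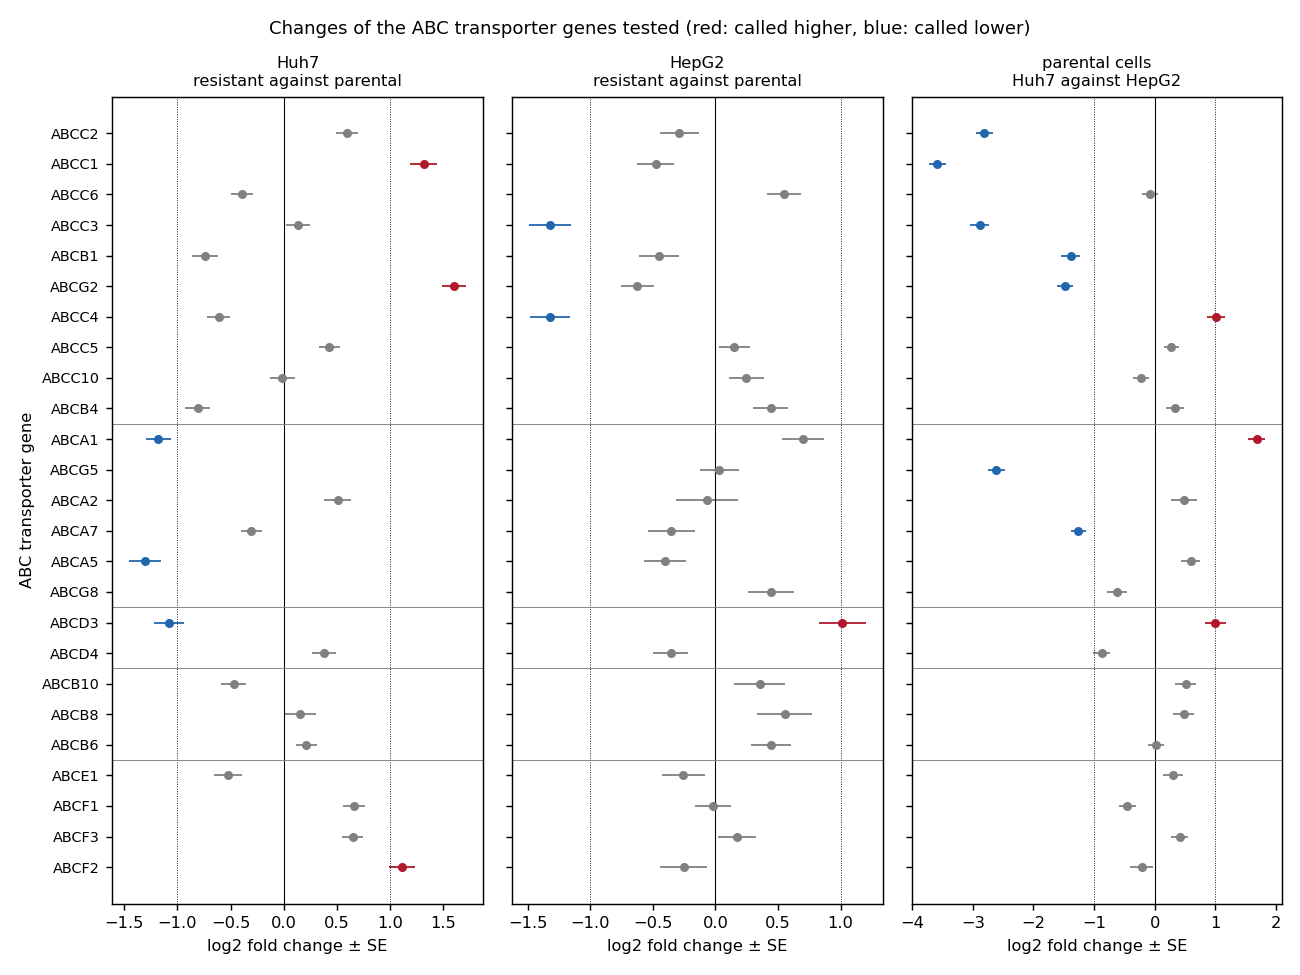
Log2 fold change, on the log2(FPKM + 1) scale, of the members tested, 2 of them not drawn, with bars of 1 SE, for resistant against parental Huh7 cells, resistant against parental HepG2 cells and parental Huh7 against parental HepG2 cells. ABCG2 lies at 1.61 in Huh7 and -0.62 in HepG2, and ABCD3 at -1.08 and 1.01, with dotted lines at the fold threshold and lines between roles.

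Among the 11 pumps of the list for hepatic drug and bile efflux, ABCG2 and ABCC1 rose in resistant Huh7 cells, and ABCC3 and ABCC4 fell in resistant HepG2 cells. ABCG2, the transporter known as breast cancer resistance protein (chr4:88090264-88231322, minus strand, GRCh38), was measured at 9.42, 11.6 and 11.0 FPKM in resistant and at 2.82, 2.68 and 2.98 FPKM in parental Huh7 cells. All resistant samples lay above all parental ones, by 3.78-fold in the means, with a log2 fold change of 1.61 (SE 0.11, adjusted p = 1.98e-05, limma). In HepG2 the order was the opposite, with 6.15, 5.74 and 5.92 FPKM in resistant and 8.98, 9.58 and 10.6 FPKM in parental samples. The groups did not overlap there either, and the log2 fold change was -0.62 (SE 0.13, adjusted p = 0.014, limma), short of the fold threshold. The samples of resistant Huh7 cells overlapped with those of parental HepG2 cells. The difference between the 2 changes was 2.23 (SE 0.14, adjusted p = 9.4e-07, limma interaction).

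ABCC1, which exports glutathione and glucuronide conjugates (chr16:15949577-16143074, plus strand), was at 10.3, 8.29 and 9.02 FPKM in resistant and 3.49, 3.17 and 2.60 FPKM in parental Huh7 cells. This was 2.98-fold in the means and 1.32 on the log2 scale (SE 0.13, adjusted p = 7.2e-05, limma), without overlap. HepG2 cells held more of it, at 30.2, 37.5 and 35.2 FPKM in resistant and 45.8, 53.8 and 44.5 FPKM in parental samples. There, resistant samples lay below parental ones with a log2 fold change of -0.48 that missed the adjusted threshold (SE 0.15, adjusted p = 0.0541, limma). Even after its rise in Huh7, ABCC1 stayed below its lowest HepG2 sample. Between the lines the changes differed by 1.80 (SE 0.18, adjusted p = 2e-05, limma interaction).

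ABCC2 was raised in Huh7 by less than the fold threshold, from 34.0, 36.2 and 35.9 FPKM to 49.1, 58.5 and 54.9 FPKM (log2 fold change 0.60, SE 0.11, adjusted p = 0.00111, limma). Its HepG2 samples, at 224, 197 and 204 FPKM in resistant and 262, 218 and 286 FPKM in parental cells, overlapped (-0.29, adjusted p = 0.215, limma). Because of its level, ABCC2 dominated the sum of the list. The 11 efflux genes summed to 108 to 117 FPKM in resistant against 89.2 to 92.8 in parental Huh7 cells, and to 304 to 321 against 354 to 419 in HepG2. Without ABCC2 the Huh7 sums were 58.5 to 60.5 against 53.0 to 57.1 FPKM and the HepG2 sums 97.2 to 107 against 133 to 136 FPKM. With median-ratio scaling these Huh7 sums overlapped, at 57.9 to 61.0 against 52.5 to 58.7, and with upper-quartile scaling they did not. As a share of all member FPKM, the efflux genes made up 39.8% to 42.3% in resistant and 29.7% to 31.5% in parental Huh7 cells, but 61.2% to 62.5% and 68.5% to 72.4% in HepG2. The efflux share therefore moved in opposite directions in the 2 lines, and these sums were not tested.

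**Figure D3:**
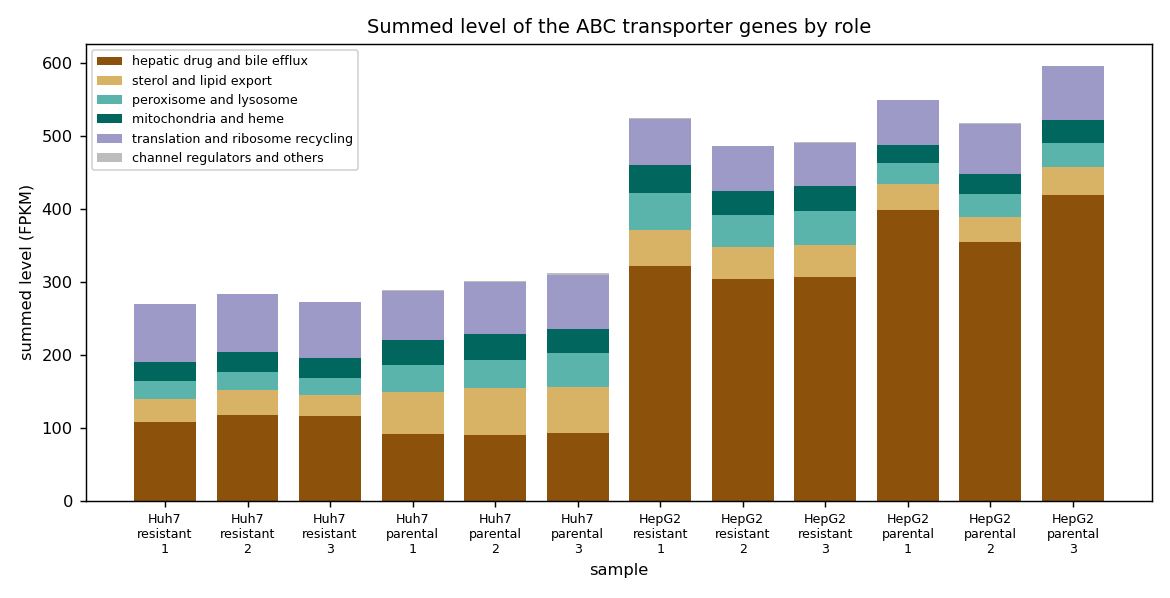
Summed FPKM of the members of each role, stacked, in each of the 12 samples; ABCC13, which has no listed role, is not drawn. The efflux genes form the lowest and tallest part of each bar, 89.2 to 117 FPKM high in Huh7 and 304 to 419 FPKM high in HepG2.

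ABCC3, a basolateral exporter of glucuronides and bile salts (chr17:50634777-50692252, plus strand), was at 8.82, 10.7 and 9.56 FPKM in resistant and 31.5, 24.7 and 21.8 FPKM in parental HepG2 cells. Every resistant sample was under every parental one, and the parental mean was 2.68-fold higher (log2 fold change -1.32, SE 0.17, adjusted p = 0.00186, limma). In Huh7 it was low in both groups, at 3.12, 2.58 and 3.19 against 2.72, 2.36 and 2.74 FPKM, which overlapped (0.13, SE 0.11, adjusted p = 0.317, limma). The interaction was 1.46 (SE 0.19, adjusted p = 0.000118, limma). ABCC4, which exports cyclic nucleotides and bile salts (chr13:95019829-95301475, minus strand), fell in HepG2 to 1.76, 1.5 and 1.80 FPKM from 6.30, 4.61 and 6.33 FPKM. Its parental mean was 3.41-fold the resistant one (-1.32, SE 0.16, adjusted p = 0.00156, limma). ABCC4 was lower in resistant Huh7 cells as well, at 7.15, 8.64 and 7.72 against 12.2, 12.3 and 12.9 FPKM, below the fold threshold (-0.61, SE 0.10, adjusted p = 0.000929, limma). ABCC4 was thus below its parental level in both lines without overlap, and the 2 changes differed by 0.71 (SE 0.17, adjusted p = 0.00457, limma interaction), which is under the fold threshold.

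**Figure D4:**
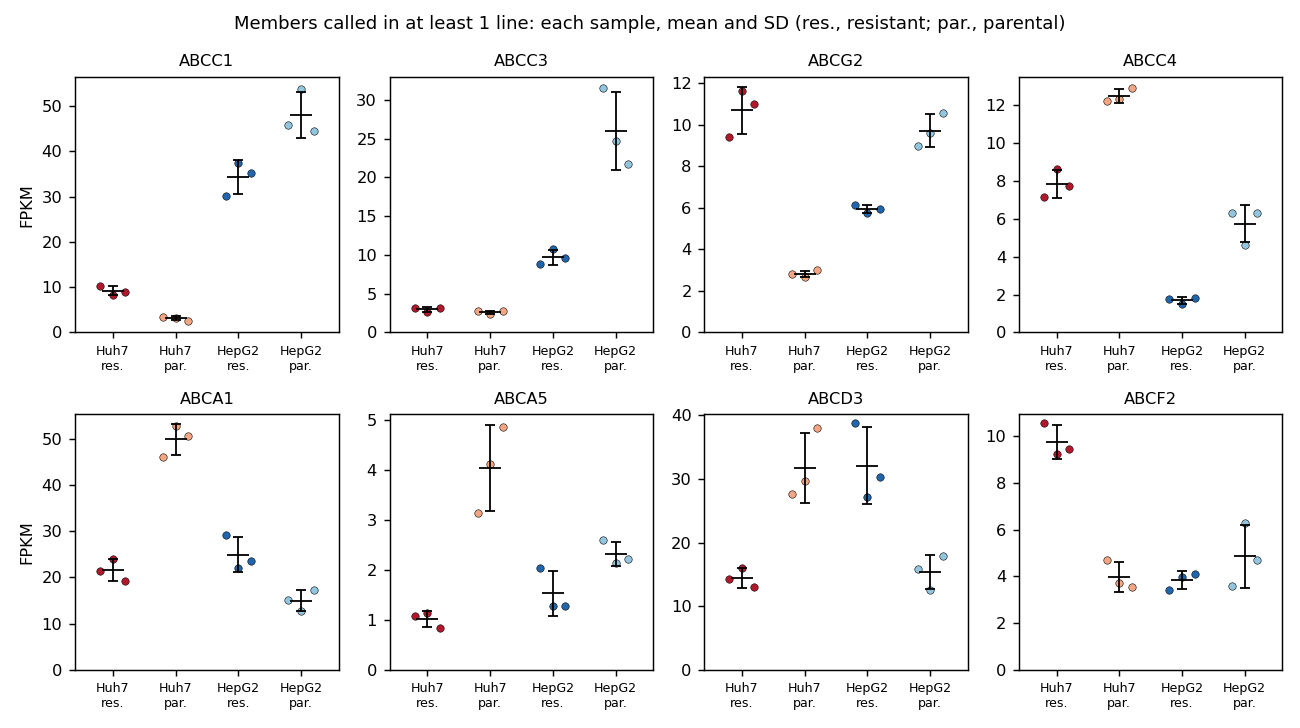
FPKM of the 8 members called in at least 1 line, in each sample of the 4 groups (points), with the mean (horizontal bar) and SD (n = 3) of each group and axes from 0. The ABCG2 panel shows resistant Huh7 cells at 9.42 to 11.6 FPKM above parental ones at 2.68 to 2.98 FPKM, while ABCA1 and ABCD3 move in opposite directions in the 2 lines.

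ABCB1, or P-glycoprotein, lay lower in the resistant samples of both lines. Its level was 3.01, 3.63 and 3.43 FPKM in resistant and 5.99, 5.70 and 7.26 FPKM in parental Huh7 cells (-0.74, SE 0.12, adjusted p = 0.000761, limma). In HepG2 it was 14.9, 11.8 and 12.3 FPKM against 18.0, 15.5 and 20.9 FPKM (-0.45, SE 0.16, adjusted p = 0.0801, limma). Resistant samples were the lower ones in both lines, without overlap, and the change in HepG2 did not pass the adjusted threshold. It did so, with limma, with median-ratio scaling (-0.56, adjusted p = 0.0394), in 1 fit of all samples (adjusted p = 0.0272) and with the GC trend removed (-0.54, adjusted p = 0.00535). In Huh7, removal of the GC trend made the change of ABCB1 smaller, at -0.39 (adjusted p = 0.00718, limma). ABCB4, the phosphatidylcholine floppase of the canalicular membrane, was at 1.62, 1.77 and 1.75 against 3.23, 3.73 and 4.40 FPKM in Huh7 (-0.81, SE 0.12, adjusted p = 0.000468, limma). In HepG2 its samples stood the other way, at 4.43, 4.01 and 3.92 against 2.53, 2.59 and 3.22 FPKM (0.44, SE 0.14, adjusted p = 0.0608, limma). The changes of ABCB4 differed by -1.25 between the lines (SE 0.16, adjusted p = 0.000102, limma interaction). ABCB11 was under the filter in both lines, with 0.297, 0.151 and 0.286 against 0.271, 0.254 and 0.397 FPKM in Huh7 and 0.0573, 0.0531 and 0.0113 against 0.0296, 0.0474 and 0.0123 FPKM in HepG2.

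Of the remaining efflux genes, ABCC5, an exporter of cyclic nucleotides, was at 8.78, 9.06 and 9.45 against 6.93, 6.18 and 6.36 FPKM in Huh7 (0.43, adjusted p = 0.00442, limma), and at 5.89, 5.92 and 5.83 against 4.97, 5.40 and 5.22 FPKM in HepG2 (0.15, adjusted p = 0.416, limma). ABCC10, a drug exporter of broad range, overlapped in Huh7, at 3.70, 3.52 and 4.20 against 4.34, 3.42 and 3.84 FPKM (-0.02, adjusted p = 0.915, limma). In HepG2, ABCC10 was at 4.94, 6.39 and 5.95 against 4.45, 4.78 and 4.79 FPKM (0.25, adjusted p = 0.244, limma). ABCC6 went down in Huh7, at 11.0, 9.62 and 10.4 against 15.1, 13.2 and 13.4 FPKM (-0.39, adjusted p = 0.00946, limma), and up in HepG2, at 20.1, 23.7 and 22.3 against 13.3, 15.4 and 15.4 FPKM (0.55, adjusted p = 0.0257, limma). Its values are uncertain, since the near-identical copy ABCC6P1, not among the members, was at 6.63 to 8.49 against 19.6 to 24.1 FPKM in Huh7 and 16.9 to 22.2 against 7.46 to 13.0 FPKM in HepG2. How reads were divided between these copies is not given in the sources used here.

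In the list for sterol and lipid export, ABCA1 and ABCA5 fell in resistant Huh7 cells. ABCA1, the cholesterol and phospholipid exporter that loads apolipoprotein A-I (chr9:104781002-104928237, minus strand), was at 21.3, 24.0 and 19.2 FPKM in resistant and 46.2, 52.8 and 50.5 FPKM in parental Huh7 cells. The parental mean was 2.32-fold the resistant one, and no samples overlapped (-1.18, SE 0.12, adjusted p = 7.38e-05, limma). In HepG2, resistant samples were above parental ones, at 29.2, 22.0 and 23.4 against 15.0, 12.7 and 17.2 FPKM, by less than the fold threshold (0.70, SE 0.17, adjusted p = 0.023, limma). Parental Huh7 and parental HepG2 cells were thus further apart than the resistant cells of both lines, whose samples overlapped. The interaction for ABCA1 was -1.88 (SE 0.20, adjusted p = 2.59e-05, limma).

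ABCA5, a lysosomal member linked to cholesterol efflux (chr17:69244311-69327244, minus strand), was at 1.08, 1.14 and 0.843 FPKM in resistant and 3.14, 4.11 and 4.87 FPKM in parental Huh7 cells (-1.31, SE 0.15, adjusted p = 0.000131, limma). In HepG2 its samples, at 2.04, 1.27 and 1.27 against 2.59, 2.14 and 2.21 FPKM, did not overlap, and the change did not pass the adjusted threshold (-0.40, SE 0.17, adjusted p = 0.121, limma). ABCA5 shares 318 exonic bases with its neighbour ABCA10 on the same strand. In all, 4 of the 13 sterol and lipid members were tested in Huh7, among them ABCA7, which was tested through its parental samples (-0.31, adjusted p = 0.0228, limma). ABCA1, ABCA5 and ABCA2 had an adjusted p-value under 0.05 too, as 70.1% of all genes did, and ABCA2 was the one that was higher, at 5.69, 5.13 and 5.79 against 4.15, 3.74 and 2.95 FPKM (0.51, adjusted p = 0.00678, limma). Of 6 tested in HepG2, ABCA1 alone had an adjusted p-value under 0.05. ABCG5 and ABCG8, which together secrete cholesterol and plant sterols into bile, were at 8.65 to 10.9 against 8.11 to 10.4 FPKM (0.03, adjusted p = 0.901) and at 2.53 to 3.03 against 1.25 to 2.42 FPKM in HepG2 (0.44, adjusted p = 0.12, limma). Both were under 1 FPKM in all Huh7 samples, and they lie head to head on opposite strands with 137 shared exonic bases. Summed over the list, sterol and lipid members were at 29.2 to 33.5 against 57.2 to 64.9 FPKM in Huh7 and at 43.2 to 49.5 against 34.9 to 38.6 FPKM in HepG2. ABCA1 was the highest of the list in each group. Its mean was 21.5 of a mean sum of 31.5 FPKM in resistant and 49.8 of 61.5 in parental Huh7 cells. In HepG2 it was 24.9 of 45.4 FPKM in resistant and 15.0 of 36.3 in parental cells. The sums were not tested and cannot be read as a change of the whole list.

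ABCD3, the peroxisomal membrane protein PMP70 that imports branched-chain fatty acids and bile acid intermediates (chr1:94418455-94518666, plus strand), was called in opposite directions in the 2 lines. It was at 14.3, 16.0 and 13.0 FPKM in resistant and 27.6, 29.6 and 38.1 FPKM in parental Huh7 cells (-1.08, SE 0.14, adjusted p = 0.000255, limma). In HepG2 it was at 38.8, 27.1 and 30.3 FPKM in resistant and 15.8, 12.5 and 17.8 FPKM in parental cells (1.01, SE 0.19, adjusted p = 0.0085, limma). No groups overlapped within a line, and resistant HepG2 cells were at about the level of parental Huh7 cells. Its interaction of -2.09 (SE 0.24, adjusted p = 5.01e-05, limma) was larger in size than that of any other member but ABCG2. Both calls were lost when 1 sample was left out, with -0.94 in Huh7 without parental replicate 3, and 0.87 without resistant replicate 1 or 0.88 without parental replicate 2 in HepG2. ABCD4, the lysosomal partner of cobalamin release, moved less, at 6.26, 5.50 and 6.40 against 4.80, 4.41 and 4.01 FPKM in Huh7 (0.38, adjusted p = 0.0139, limma) and at 6.75, 6.93 and 6.48 against 8.08, 10.3 and 8.40 FPKM in HepG2 (-0.36, adjusted p = 0.108, limma).

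Among the mitochondrial members, ABCB10, which stabilises mitoferrin in erythroid cells, was at 11.7, 15.1 and 12.3 FPKM in resistant and 17.8, 19.8 and 17.6 FPKM in parental Huh7 cells (-0.47, adjusted p = 0.00753, limma). Resistant samples were the lower ones, short of the fold threshold. ABCB6 and ABCB8 did not reach an adjusted p-value under 0.05 in Huh7. In HepG2, ABCB10 did not reach it either, and limma gave ABCB6 (0.45, adjusted p = 0.0825) and ABCB8 (0.55, adjusted p = 0.107) an unadjusted p of 0.0227 and 0.0343.

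Among the members that act on ribosomes, ABCF2 was called higher in resistant Huh7 cells. Its row ENSG00000033050 (chr7:151212490-151227230, minus strand) was at 10.6, 9.25 and 9.44 FPKM in resistant and 4.72, 3.70 and 3.53 FPKM in parental cells (1.12, SE 0.12, adjusted p = 0.000123, limma). In HepG2 its groups overlapped, at 3.41, 3.99 and 4.10 against 3.59, 6.29 and 4.69 FPKM (-0.25, SE 0.19, adjusted p = 0.365, limma), and the interaction was 1.37 (SE 0.23, adjusted p = 0.000469, limma). The other ABCF2 row, ENSG00000285292, which shares 1914 exonic bases with it, was at 0 in 11 samples and at 0.0349 FPKM in 1. ABCF1, which takes part in translation initiation, was at 27.2, 25.1 and 26.9 against 18.2, 15.6 and 15.2 FPKM in Huh7 (0.66, adjusted p = 0.000699, limma), and ABCF3 at 13.6, 12.5 and 13.4 against 8.36, 7.48 and 8.27 FPKM (0.65, adjusted p = 0.000526, limma). ABCE1, the ribosome recycling factor, stood the other way, at 28.2, 31.5 and 27.4 against 35.5, 43.4 and 48.0 FPKM (-0.52, adjusted p = 0.0071, limma). Its exons overlap ANAPC10 and OTUD4 on the opposite strand by 469 and 276 bases, and whether strand was used in counting is not given in the sources used here. In HepG2, limma gave none of the 4 tested rows of this role an unadjusted or adjusted p-value under 0.05.

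The changes in Huh7 moved with the GC content of the genes. Across all 12545 genes tested with a known GC content, Spearman's rho between GC content and log2 fold change was 0.617 in Huh7 and 0.039 across 11756 genes in HepG2, and for the members it was 0.419 (n = 25) and 0.205 (n = 27); genes share libraries and are not independent replicates. With the GC trend of each library removed, ABCG2 stood at 2.13 (SE 0.07, adjusted p = 4.76e-06, limma) and ABCA1 stayed called at -1.05 (SE 0.08, adjusted p = 9.06e-05, limma). Of all genes, 11.9% were called in this way. The other 4 member calls in Huh7 were lost, with ABCC1 at 0.84, ABCF2 at 0.75, ABCA5 at -0.27 and ABCD3 at -0.26. ABCA5 and ABCD3 have the lowest GC contents of the members tested, 33.1% and 37.6%, while ABCC1 and ABCF2 lie at 54.9% and 52.2% and ABCG2 at 41.2%. The sign changed for 4 of 25 members in Huh7, namely ABCB6, ABCB8, ABCC3 and ABCE1, of which ABCE1 had passed an adjusted p-value of 0.05 before. ABCC10 went from -0.02 to -0.56 (adjusted p = 0.0015, limma) and ABCC6 from -0.39 to -0.93 (adjusted p = 5.1e-05, limma), short of the fold threshold. Rises that no longer passed an adjusted p-value of 0.05 included ABCF3 at 0.14 (adjusted p = 0.176, limma) and ABCA2 at 0.02 (adjusted p = 0.792, limma). ABCD4 at 0.05 (adjusted p = 0.55, limma) and ABCC5 at 0.14 (adjusted p = 0.0877, limma) did not pass it either. In all, 20 of 25 members were under 0.05 in this way, the same number as before, though not all the same genes. In HepG2, ABCD3 changed little in size, to 0.91, and was no longer called, whereas ABCC3 and ABCC4 were. The part of GC content in these differences was not tested further.

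**Figure D5:**
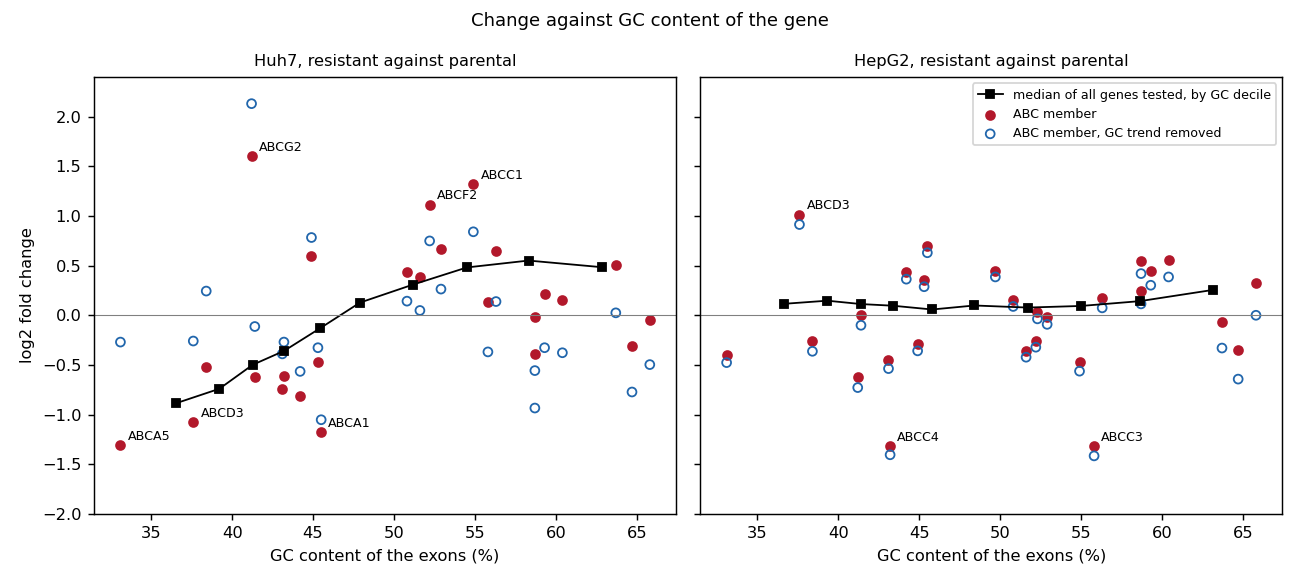
Log2 fold change of the members tested (filled points) against the GC content of their exons in percent, for Huh7 and HepG2. The black line gives the median of all genes tested in each of 10 bins of GC content that hold near-equal numbers of genes. Open points are the members' values with the GC trend removed. In Huh7 the line rises from -0.88 to 0.55, and ABCG2, at 41.2% GC, lies far above it, while the line stays within 0.06 to 0.26 in HepG2.

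Before resistance, the lines already differed in many of these genes. Of 27 members tested between the parental cells, 3 were higher and 7 lower in Huh7 than in HepG2, against 19.4% and 12.5% of 12796 genes (31.9% in both directions). The groups did not overlap for 9 members that were higher and 12 that were lower in Huh7, and for 70.0% of all genes. Lower in Huh7 were ABCC1 (log2 fold change -3.58, SE 0.14, adjusted p = 4.65e-07, limma), ABCC3 (-2.89, SE 0.16), ABCC2 (-2.81, SE 0.15), ABCG2 (-1.48, SE 0.13) and ABCB1 (-1.38, SE 0.15), which are 5 of the 10 efflux genes tested, together with ABCG5 (-2.61) and ABCA7 (-1.26). The mean of ABCC1 was 15.6-fold, that of ABCC3 9.96-fold and that of ABCC2 7.22-fold higher in parental HepG2 cells. Higher in parental Huh7 cells were ABCA1 (1.68, SE 0.14, adjusted p = 2.23e-05, limma), ABCC4 (1.01, SE 0.15) and ABCD3 (1.00, SE 0.18), the last 2 just past the fold threshold and lost without Huh7 parental replicate 3 (0.99 and 0.87) or without HepG2 parental replicate 2 (0.88 and 0.87). With median-ratio scaling they were at 0.85 and 0.84, and with the GC trend removed at 0.70 and 0.35, neither called. ABCG5 and ABCG8 were tested here only through HepG2, as every Huh7 sample was under 1 FPKM. Since the parental samples enter this comparison as well as those of resistance, the values of the comparisons share them: ABCG2 stood at -1.48 here and at 1.61 with resistance in Huh7, ABCC1 at -3.58 and 1.32, and ABCA1 at 1.68 and -1.18.

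When the changes of the 2 lines were tested against each other, 7 of 27 members were called, 4 with a more positive change in Huh7 and 3 with a more negative one, against 10.6% and 18.2% of 13800 genes (28.8% in both directions). Without regard to size, 17 members had an adjusted p-value under 0.05, and 56.3% of all genes did. They were ABCG2, ABCC1, ABCC3 and ABCF2 on one side and ABCD3, ABCA1 and ABCB4 on the other. Except for ABCC3 and ABCF2, whose samples overlapped in 1 line, the groups of these genes were apart in both lines and in opposite order.

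The 22 rows left out by the filter in Huh7 and the 20 in HepG2 were looked at on reads calculated back, with limma-voom for those with at least 10 reads in at least 3 samples, an alternative chosen after the data had been seen. In Huh7, 16 of the 22 could be tested, and 2 were higher and 7 lower, against 14.3% and 22.4% of the 15259 genes so tested. ABCG1, which exports cholesterol to HDL, was at 0.560, 0.390 and 0.455 FPKM in resistant and 0.10, 0.165 and 0.0607 FPKM in parental cells, or 46 to 65 against 6 to 17 reads (2.14, SE 0.38, adjusted p = 6.13e-06, limma-voom). ABCA3, the surfactant lipid transporter, was at 76 to 138 against 31 to 54 reads (1.10, adjusted p = 0.000479, limma-voom). Lower were ABCA12 (5 to 9 against 43 to 73 reads, -3.12), the peroxisomal ABCD2 (5 to 8 against 35 to 72 reads, -3.06), ABCA10 (4 to 7 against 39 to 44 reads, -2.96), ABCB5 (-1.86), ABCA9 (-1.72), ABCA4 (-1.48) and ABCG5 (-1.33), with adjusted p-values of 0.0018 or less. ABCA12, ABCD2 and ABCA10 were under 10 reads in every resistant sample and were tested only through the parental samples in which they are high, so that their values are a description. Apart from these 3, 4 were called lower. The GC trend was not removed in these fits. GC content was 53.7% and 60.4% in ABCG1 and ABCA3, which were higher. It was 34.3% to 42.6% in ABCD2, ABCA10, ABCA9, ABCB5 and ABCA12, and 52.3% and 52.4% in ABCG5 and ABCA4, which were lower. The part of GC content here was not tested. In HepG2, 6 of 20 could be tested: ABCA12 was higher with 41 to 53 against 4 to 16 reads (1.80, adjusted p = 0.00646, limma-voom) and ABCA4 lower with 11 to 16 against 19 to 43 reads (-1.53, adjusted p = 0.0108, limma-voom), where 7.01% and 5.16% of 13817 genes were. ABCA12, a keratinocyte lipid transporter, thus moved down in Huh7 and up in HepG2, at 0.480 FPKM at most. These levels are low, and 3 rows, ABCC12, ABCG4 and the second ABCF2 row, had about 3 reads or fewer in every sample. The reads of ABCA4 are approximate, since its values did not give whole reads, and those of ABCC12 are as well.

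Other genes of these pathways were examined in 7 lists with 48 genes. In Huh7, 4 of 47 tested were called higher and 1 lower, where 8.59% and 14.0% of all genes were. With the GC trend removed, limma called 1 of them higher and 0 lower, where 5.6% and 6.27% of all genes were. With that removal 16 were lower with an unadjusted p-value under 0.05. Without it, limma-voom called 4 lower, against 21.2% of all genes. The 5 called as deposited were NR1I2, the pregnane X receptor that controls drug transporter genes, at 2.32, 2.72 and 2.30 against 0.590, 0.750 and 0.748 FPKM (1.02, adjusted p = 0.000103, limma), which was tested only through the resistant samples and lay just past the fold threshold, EZR, or ezrin, which anchors membrane proteins to actin (1.09, adjusted p = 0.000276), SLC51B, a subunit of the basolateral bile acid transporter (2.26, adjusted p = 2.86e-05), ALAS1, the first enzyme of heme synthesis (1.11, adjusted p = 7.64e-05), and, lower, the ribosome rescue factor HBS1L (-1.07, adjusted p = 0.000148, limma). In HepG2, limma called 0 of 46 higher and 3 lower, where 3.29% and 2.98% of all genes were, with 6 higher at an unadjusted p-value under 0.05. With limma-voom 0 were called higher, against 5.49% of all genes. The 3 called lower by limma were NR0B2, the repressor of bile acid synthesis (-1.01, adjusted p = 0.00786), FOXO3, a transcription factor (-1.62, adjusted p = 0.000709), and SMPDL3A, a target gene of the sterol receptor LXR (-1.41, adjusted p = 0.000976, limma). Of 47 tested, 6 had a called positive and 2 a called negative interaction, against 10.6% and 18.2% of all genes, among them NR1I2 at 1.26 and EZR at 1.70 (adjusted p = 0.000299 and 0.00011, limma). Of the 6 listed LXR target genes other than ABC transporters, SMPDL3A was called in HepG2, and none passed the fold threshold in Huh7. There LPCAT3 (0.84, adjusted p = 0.00022), SCD (0.55, adjusted p = 0.00663) and NR1H3 (0.41, adjusted p = 0.0373) were higher and SMPDL3A (-0.42, adjusted p = 0.0264, limma) lower at an adjusted p-value under 0.05. Such a p-value was reached by 70.1% of all genes in Huh7.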

How the data were processed

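Processed tables of 12 samples were used, 1 per sample, with groups from the sample labels. The authors deposited decimal values without a stated unit. These were called FPKM, since 96.4% of the deposited values checked, up to 2000 reads, gave whole reads within 0.05 of a whole number. The FPKM values deposited by the authors thus follow the pattern of reads scaled by gene length and depth. RPKM cannot be told apart from FPKM, and the values of 6 members (ABCA4, ABCB4, ABCB11, ABCC12, ABCC13 and ABCD3) did not give whole reads. ABCC2 was above 2000 reads in every sample and so outside this check. Its recovered reads were not whole either, for example 7302.5 and 8849.3 in resistant Huh7 replicates 1 and 2. Per the labels' processing notes, bcl2fastq and GRCh38 were used; the aligner and counter are not given in the sources used here. The labels name an RNeasy kit for RNA extraction, and the paper's methods another reagent. Rows under NONCODE identifiers were not used here.

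Exon lengths and GC content came from GENCODE release 29. Values were read with Python 3.11.15 and pandas 2.3.3 and tested with limma 3.58.1 in R 4.3.3 (empirical Bayes with a trend) on log2(FPKM + 1), so that fold changes of low genes are understated, where a gene reached 1 FPKM in 3 or more samples of the fit, with adjustment over all Ensembl genes tested and the calling rule given above. The interaction used all 12 samples. The step was tested on simulated data. Members called in a line or in the interaction and the listed efflux genes are named with every sample, other members by range. Values of 2 members are not reported here, although counts and sums over the members include them. The members, gene lists and tests were chosen with earlier results of these data known. Each result was recomputed with a pseudocount of 0.1, without the FPKM filter, for genes with 10 reads in each sample, with median-ratio or upper-quartile scaling, limma-voom on the recovered reads, no trend, 1 fit of all samples, a replicate block, removal of each library's GC trend (lowess, span 0.3) and leaving out each sample. The reads carry no molecular identifiers, so that they are not independent molecules.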

Additional observations from a re-analysis of the deposited data

Results flagged for a closer look

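The change with resistance differed between Huh7 and HepG2 for 7 ABC transporters, by limma's interaction test in all 12 samples. The difference of log2 fold changes, Huh7 minus HepG2, was 2.23 for ABCG2 (SE 0.14, adjusted p = 9.4e-07), 1.80 for ABCC1 (SE 0.18, adjusted p = 2e-05), 1.46 for ABCC3 (SE 0.19, adjusted p = 0.000118) and 1.37 for ABCF2 (SE 0.23, adjusted p = 0.000469). It was -2.09 for ABCD3 (SE 0.24, adjusted p = 5.01e-05), -1.88 for ABCA1 (SE 0.20, adjusted p = 2.59e-05) and -1.25 for ABCB4 (SE 0.16, adjusted p = 0.000102). Of all genes tested, 28.8% were called in this test. With the GC trend of the libraries removed, ABCB4 was at -0.95 and no longer called, while the other 6 were.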

How the results depend on the processing

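With the GC trend removed, 1 member was called higher and 1 lower in Huh7, where 5.6% and 6.27% of all genes were (703 and 787). In HepG2, 0 members were called higher, against 2.37% of all genes. In parental Huh7, 1 was higher than in parental HepG2, against 13.9% of all genes. Upper-quartile and median-ratio scaling each left 0 called higher in HepG2, against 2.72% and 2.42% of all genes. Median-ratio scaling left 1 higher between the parental lines, against 16.3%. These HepG2 counts of 0 are limma's; 5, 4 and 5 members were higher at an unadjusted p-value under 0.05 under upper-quartile scaling, median-ratio scaling and GC removal, and limma-voom called 1. The interaction was called for 11 members with a pseudocount of 0.1 and for 11 with limma-voom on reads, of 27 tested, where 38% and 37.2% of all genes were. With limma-voom and at least 10 reads in 3 samples, added after the data had been seen, 5 were higher and 11 lower in Huh7, 2 higher in HepG2, 11 higher between the parental lines and 14 had an interaction. Of the members 41, 33, 40 and 41 were tested in these comparisons, and of all genes 14.3% were higher and 22.4% lower in Huh7, 7.01% higher in HepG2 and 29.1% higher between the parental lines, and 38.1% had an interaction. The 11 lower in Huh7 include ABCA12, ABCD2 and ABCA10, which were tested only through the parental samples, so that their values are a description. Whether members entered the parental comparison or the interaction through 1 group alone was not checked under this setting. Leaving out 1 sample gave 0 to 1 called higher in HepG2 and 1 to 3 between the parental lines, and for the other counts 3 to 3 higher and 2 to 3 lower in Huh7, 2 to 2 lower in HepG2, 6 to 7 lower between the parental lines and 7 to 8 interactions. Shares of all genes were not computed for these fits. The sign changed for ABCC10 in Huh7 with upper-quartile (0.035) and median-ratio scaling (0.0089), and lay between -0.083 and 0.054 when 1 sample was left out, above 0 without resistant replicate 2 or parental replicate 1 (with the GC trend removed it was -0.56), and for ABCC3 in Huh7 with the GC trend removed (-0.37). ABCB4 passed the fold threshold in Huh7 with a pseudocount of 0.1 (-1.09) and limma-voom (-1.13). The cause of these shifts was not tested. ABCG5 could not be tested between the parental lines without any 1 HepG2 parental sample, as it then passed 1 FPKM in too few samples.

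Over all genes, Huh7 calls were 1581 higher and 2606 lower with a pseudocount of 0.1 and 1630 and 2665 with limma-voom, and HepG2 calls 612 and 489, and 646 and 511. Median-ratio scaling moved the median of all genes between the parental lines from 0.19 to 0.05 and that of the interaction from -0.16 to -0.03. It gave 285 higher and 428 lower in HepG2, against 387 and 350. Deviations of same-numbered samples correlated at 0.084, 0.062 and -0.228 in Huh7 and at 0.246, 0.437 and -0.011 in HepG2. Those of differently numbered samples ran from -0.335 to 0.282 in Huh7 and from -0.423 to 0.21 in HepG2. In HepG2, the pairs at 0.246 and 0.437 thus lay above all differently numbered ones. Whether replicate numbers pair the samples was not tested. With the replicate block, 3 members were higher and 3 lower in Huh7, 1 higher and 2 lower in HepG2, 3 higher and 7 lower between the parental lines and 7 had an interaction. It gave 1081 and 1760 calls over all genes in Huh7 and 426 and 353 in HepG2. Between the parental lines, 19.5% of all genes were higher and 12.5% lower with it, and 28.9% had an interaction. ABCB1 in HepG2 had an adjusted p-value of 0.0484 with the replicate block. Without the filter, 46 members were tested in Huh7 and 47 in HepG2, and 3 were higher and 3 lower in Huh7 and 1 higher and 2 lower in HepG2. Of all genes so tested, 4.17% were higher and 6.84% lower in Huh7, and 1.12% and 1.33% in HepG2. Rows with about 3 reads or fewer, such as ABCC12 and ABCG4, allow little precision.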
